A study of Lycium barbarum and Lycium ruthenicum with 30 samples.

Results

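The enzymes described here are 7 beta-glucosidase unigenes whose RNA became abundant as wolfberry fruit ripened: TRINITY_DN80120_c0_g1, TRINITY_DN80120_c0_g2, TRINITY_DN80120_c0_g3, TRINITY_DN100868_c4_g2, TRINITY_DN100868_c4_g3, TRINITY_DN77905_c2_g2 and TRINITY_DN84544_c0_g2. A unigene is a cluster of assembled transcripts that stands for a gene, and the prefix TRINITY_ is left out below. The 7 were chosen by their levels in these same libraries, as beta-glucosidases of the study's list of 113 phenylpropanoid unigenes that were high in ripening fruit of both species and high later in Lycium ruthenicum. Their levels, onsets and lags are therefore given as a description. No p is printed for them, and where the fit over all unigenes calls some of them, the count describes where their steps lie and supports nothing. The deposited table holds 326276 unigenes, and the phenylpropanoid list holds 27 beta-glucosidases, these 7 and 20 others.

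A beta-glucosidase removes a glucose unit from the end of a larger molecule. In plants these enzymes release phenylpropanoids, hormones and defence compounds from the inactive glucosides in which they are stored, and others act on cell wall sugars. In the phenylpropanoid pathway they release coniferyl alcohol and related building blocks of lignin from their glucosides, and coniferyl-alcohol glucosyltransferase catalyses the opposite step. All 7 were annotated by the authors to the same KEGG enzyme, and the best protein match of each was named beta-glucosidase 11-like. The matches were not all different: DN80120_c0_g3, DN100868_c4_g2 and DN84544_c0_g2 shared 1 protein of Nicotiana tomentosiformis, a tobacco relative, and DN80120_c0_g2 and DN77905_c2_g2 shared 1 protein of tomato. Unigenes with the same start of the name, 3 in DN80120_c0 and 2 in DN100868_c4, come from 1 group of overlapping reads in the assembly. Whether some of the 7 are pieces, alleles or close copies of 1 gene cannot be told from the names, and reads that fitted several unigenes were not counted. What the substrates of these enzymes are was not measured.

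RNA was sequenced from fruit of L. ruthenicum (LR), which ripens black, and L. barbarum (LB), which ripens red. Both were sampled in 5 windows after flowering, young fruit at 9 to 12 days (S1), green fruit at 14 to 19 days (S2), colouring fruit at 20 to 26 days (S3), immature fruit at 30 to 37 days (S4) and mature fruit at 34 to 45 days (S5), with 3 trees per species and window as 3 libraries, 30 in all. The windows of S4 and S5 share days, and a lag in stages is a lag between such windows. LR shrubs were wild plants of a dry, salty site, and LB shrubs were cultivated, watered plants of a nursery elsewhere, so an effect of species cannot be told apart from those of site and water. The table's column codes B and R are LR and LB in the study's supplement, while the sample titles give the species the other way round; the supplement was followed here. A name such as LB4-3 stands for the third LB library of S4. Each species had fewer shrubs than libraries, so some libraries of different stages share a plant, and the labels do not say which. In bulk fruit, fewer cells of a type and less RNA per cell cannot be told apart.

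Levels are FPKM, the fragments counted on a unigene divided by its length and by the mapped fragments of the library. FPKM summed to 2468990 to 3269600 per library, and 46024 to 62882 unigenes in LR and 52460 to 84959 in LB were at 1 or more. The 2 pigment genes checked fitted the column codes. The study's supplement also prints values of DN80120_c0_g1 and of these 2 genes under the names LB and LR, and they equal those used here. Chalcone synthase (DN73389_c1_g2), the entry to flavonoids, had a mean FPKM of 3414 ± 1606 in LR and 39.3 ± 8.99 in LB at S5, and leucoanthocyanidin dioxygenase (DN68066_c0_g2), a late enzyme of anthocyanin synthesis, had 2948 ± 706 in LR and 1.31 ± 0.266 in LB (SD, n = 3 each). LB4-3 and LB5-2 were low for all 7 beta-glucosidases, and values without them are given where they matter. Scaling by the median ratio over unigenes detected in every library gave factors of 0.493 to 0.932 at LR S3 and 0.414 to 0.751 at LR S4, against 0.783 to 1.05 in the other LR groups and 1.08 to 1.52 in LB. FPKM were divided by these factors, so the deposited values of most of those unigenes were low at LR S3 and S4. Scaled values are given where they move a result.

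The 7 beta-glucosidases were far lower in young than in ripe fruit of both species. In young LR fruit every group mean was 12.1 FPKM or less, and in young LB fruit DN100868_c4_g2 (80.4 ± 30.8) and DN80120_c0_g1 (45.7 ± 2.79) were the highest. Summed over the 7, FPKM in LR was 21.5 ± 7.90 in young fruit (S1), 85.9 ± 58.6 in green fruit (S2), 2171 ± 1393 in colouring fruit (S3), 5054 ± 1258 in immature fruit (S4) and 19840.3 ± 2672 in mature fruit (S5; SD, n = 3). In LB it was 170 ± 57.3 at S1, 9256 ± 2108 at S2, 29983 ± 2674 at S3, 23886 ± 10978 at S4 and 23131 ± 8094 at S5. LB was thus higher at S2 than LR at S4 in FPKM as deposited, and it changed little from S3 on beside the spread of its libraries, while LR gained most between S4 and S5. Among all unigenes, DN80120_c0_g3 ranked 36 to 43 in the libraries of LR S5 and 12 to 20 in those of LB S3, while DN80120_c0_g2 ranked 1124 to 1355 and 365 to 541 in the same groups. At the top, the 7 took 0.794% ± 0.118 of all FPKM in LR, at S5, and 1.08% ± 0.152 in LB, at S3. Within LB the 3 libraries of S4 summed to 30448, 29997 and 11213 and those of S5 to 29242, 13952 and 26199, so the large SD of these groups comes from LB4-3 and LB5-2. After scaling, the sum in LR was 3080 ± 922 for S3, 8890 ± 1457 for S4 and 20883 ± 3145 for S5, and in LB 6715 ± 1392 for S2, so the order of LR S4 and LB S2 turned round while the order of stages within LR did not.

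**Figure D1:**
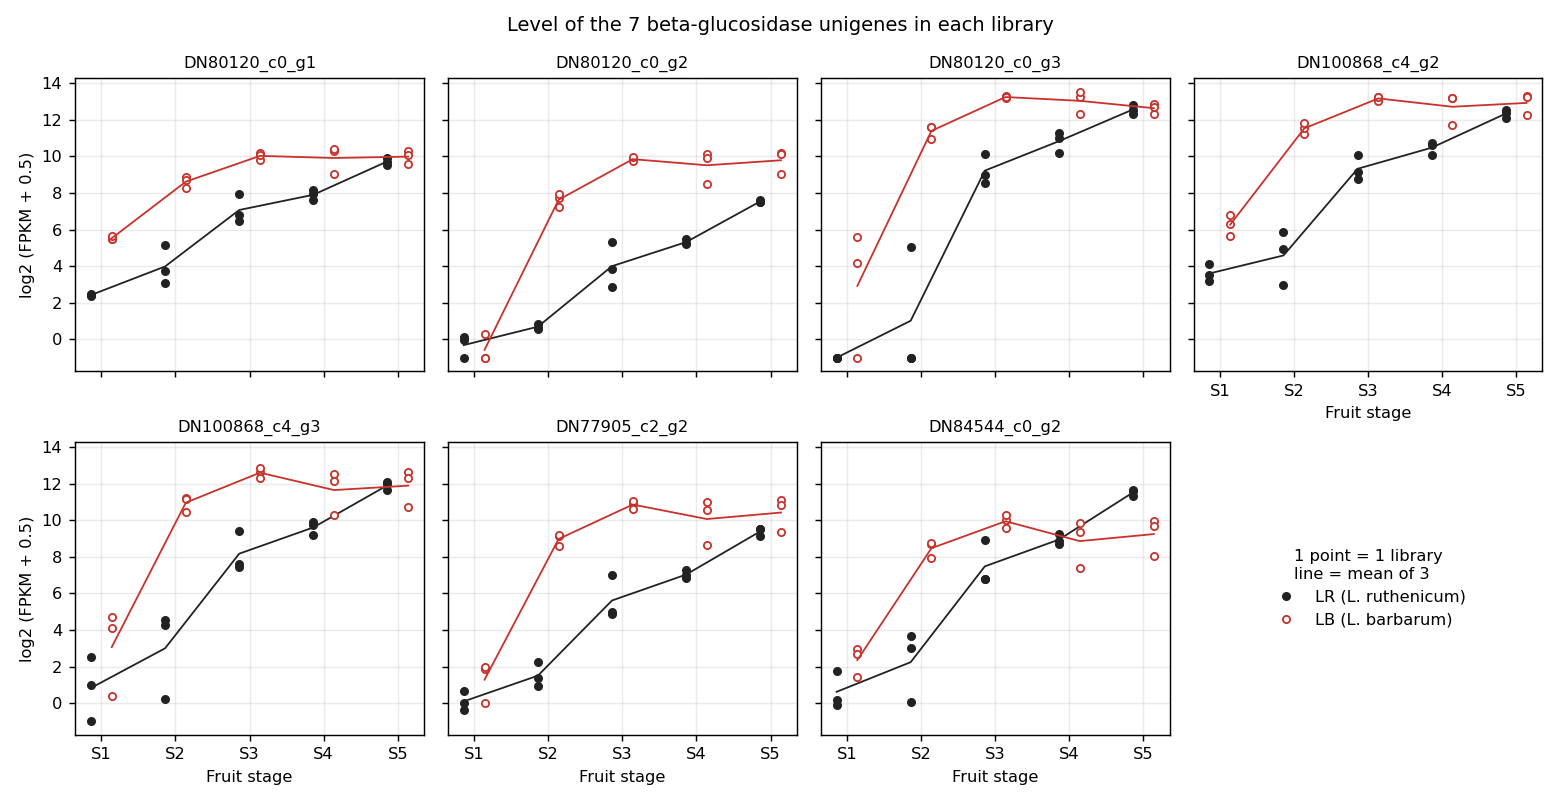
Level of each of the 7 unigenes in each of 30 libraries, as log2 (FPKM + 0.5), by fruit stage, with LR (filled black) left of LB (open red) and lines through the means of 3. In all 7 panels LB climbs by S2 and again by S3, LR climbs at S3 and again at S5, all LB S5 points of DN80120_c0_g3 lie below its LB S3 points, and only DN84544_c0_g2 ends with all LR libraries above all LB libraries.

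DN100868_c4_g2 had the highest level of the 7 that was read in all 30 libraries. In LR its FPKM was 16.6, 8.78 and 10.8 at S1, 29.8, 7.20 and 58.9 at S2, 564, 431 and 1074 at S3, 1582, 1667 and 1090.4 at S4 and 5306, 5946 and 4403 at S5. In LB it was 112, 50.4 and 79.0 at S1, 2355, 3048 and 3573 at S2, 9610.0, 8348 and 9671 at S3, 9464, 9294 and 3414 at S4 and 9914, 4891 and 9602 at S5. From S3 on, every LR group lay apart from the LR group before it, and in FPKM as deposited LB S2 lay above all LR libraries up to S4. After scaling, LR S4 (2107 to 2948) and LB S2 (1761 to 2543) overlapped. On the log2 (FPKM + 0.5) scale, S3 minus S2 was 4.73 ± 0.52 in LR (± SE of the fit) and S2 minus S1 was 5.26 ± 0.52 in LB.

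DN80120_c0_g3 reached the highest FPKM of any of the 7, 11834 in LB4-2, and was also the one most often listed at 0. LR libraries had 0, 0 and 0 at S1, 32.8, 0 and 0 at S2, 497, 376 and 1134 at S3, 2045, 2492 and 1180.4 at S4 and 5968, 7179 and 5176 at S5. LB libraries had 47.8, 17.5 and 0 at S1, 1982, 3132 and 3129 at S2, 9949, 9491 and 9616 at S3, 9808, 11834 and 5081 at S4 and 7421, 5172 and 6668 at S5. Its smallest value above 0 was 17.5, so 1 fragment was worth no more than that and values listed at 0 may hide a level of that size. No ratio is given against LR S1, where every library was listed at 0. The LB means ran down from S3 to S5, 9685 ± 237, 8908 ± 3466 and 6420 ± 1145, the lowest share of its maximum that any of the 7 kept at LB S5 (66.3%), and all LB S5 libraries lay below all LB S3 libraries.

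DN100868_c4_g3 followed DN100868_c4_g2 at a lower level. Its FPKM in LR was 5.24, 1.47 and 0 at S1, 22.5, 0.66 and 18.6 at S2, 176, 197 and 683 at S3, 943, 861 and 576 at S4 and 4369.7, 3971 and 3243 at S5. In LB the values were 16.5, 0.82 and 25.5 at S1, 1419.7, 2409.6 and 2289.7 at S2, 6452, 5034.5 and 7273 at S3, 5849.9, 4434 and 1260.1 at S4 and 6297, 1679 and 5103 at S5. The 2 low LB libraries stood out here, at 24.5% (LB4-3) and 29.5% (LB5-2) of the mean of the other 2 libraries of their group. LR S5 and LB S5 overlapped, with means of 3861 ± 571 in LR and 4360 ± 2397 in LB.

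DN84544_c0_g2 was the exception between the species. LR libraries had 2.89, 0.64 and 0.44 at S1, 12.2, 0.53 and 7.57 at S2, 109, 108 and 475 at S3, 603, 473 and 413 at S4 and 3246, 3039 and 2542 at S5. LB libraries had 7.17, 2.17 and 6.04 at S1, 240.3, 419.9 and 438 at S2, 1016, 762 and 1222 at S3, 910.0, 643 and 169 at S4 and 1007, 264 and 826 at S5. At S2 and S3 all LR libraries lay below all LB libraries, at S4 they overlapped, and at S5 all LR libraries lay above all LB libraries, by 2.28 ± 0.77 on the log2 scale. The mean at LR S5, 2942 ± 362, was higher than at any LB stage, the highest of which was 1000.2 ± 231 at S3. It was called higher in LR at S5 after scaling (2.76 on the log2 scale) and not on the FPKM as deposited.

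DN77905_c2_g2 had 0.51, 1.06 and 0.28 at LR S1, 2.06, 1.39 and 4.21 at S2, 28.4, 31.0 and 127 at S3, 154, 126 and 112 at S4 and 728, 722 and 569 at S5. Its LB values were 3.13, 0.50 and 3.47 at S1, 379, 570.3 and 583 at S2, 1887, 1552 and 2154 at S3, 2031, 1481 and 404 at S4 and 2189, 646 and 1798 at S5. LB S2 lay above every LR library up to S4. Within LB it was among the most sensitive to the 2 low libraries, at 23.0% in LB4-3 and 32.4% in LB5-2 of the mean of the other 2.

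DN80120_c0_g1 had the closest libraries of the 7 in young fruit, with no overlap of the species there. LR libraries had 4.83, 4.64 and 5.14 at S1, 12.9, 7.81 and 35.2 at S2, 87.1, 113 and 244 at S3, 284, 241 and 198 at S4 and 842, 972 and 741 at S5. LB libraries had 43.5, 44.6 and 48.8 at S1, 305, 475 and 419 at S2, 1174, 894 and 1079 at S3, 1253, 1346 and 528 at S4 and 1242, 777 and 1078 at S5. The step from young to green fruit in LB was the smallest of the 7, 3.09 ± 0.41 on the log2 scale, and the LB means of S3, S4 and S5 were close to each other (1049 ± 142, 1042 ± 448 and 1033 ± 236).

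DN80120_c0_g2 was the lowest of the 7 in LR from S2 on. Its FPKM there was 0.47, 0.58 and 0 at S1, 1.30, 1.06 and 1.01 at S2, 6.69, 13.9 and 39.2 at S3, 43.9, 36.96 and 37.5 at S4 and 193, 182 and 182 at S5. In LB it was 0, 0 and 0.72 at S1, 153, 207 and 242 at S2, 911, 868 and 984 at S3, 1132, 965 and 357 at S4 and 1172, 522 and 1124 at S5. Even at S5 the LR libraries only reached the LB level of S2 in FPKM as deposited and lay below all LB libraries of S3 to S5. After scaling, LR S5 (191 to 200) lay above LB S2 (114 to 173) and still below LB S3 to S5. At S5 the mean was 186 ± 6.06 in LR and 939 ± 362 in LB, a difference of -2.25 ± 0.49 on the log2 scale.

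Onset was read in 2 ways. The 50% stage is the first stage whose mean FPKM was at least 50% of the highest stage mean of that species, and the separation stage is the first at which all 3 libraries lay above all 3 of S1 with a log2 difference of at least 1. The 50% stage was S5 in LR and S3 in LB for 7 of 7, a lag of 2 stages, between the window of 34 to 45 days in LR and that of 20 to 26 days in LB. The mean at LR S4 was 16.9% (DN84544_c0_g2) to 31.2% (DN80120_c0_g3) of the LR maximum, and the mean at LB S2 was 21.4% (DN80120_c0_g2) to 38.1% (DN80120_c0_g1) of the LB maximum. After scaling the shares were 28.4% (DN84544_c0_g2) to 51.6% (DN80120_c0_g3) at LR S4, with DN80120_c0_g1 at 47.6% and DN100868_c4_g2 at 46.6% just under the 50% line, and 18.5% (DN80120_c0_g2) to 32.4% (DN80120_c0_g1) at LB S2. The highest stage mean was at S5 in LR for 7 of 7, and at S3 in LB for 6 of 7, with DN80120_c0_g2 at S5. Without LB4-3 and LB5-2 it was at LB S3 for 2 of 7 (3 of 7 without LB4-3 alone and 3 of 7 without LB5-2 alone), so these libraries decide whether the LB level peaks at S3 or later for most of the 7.

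**Figure D2:**
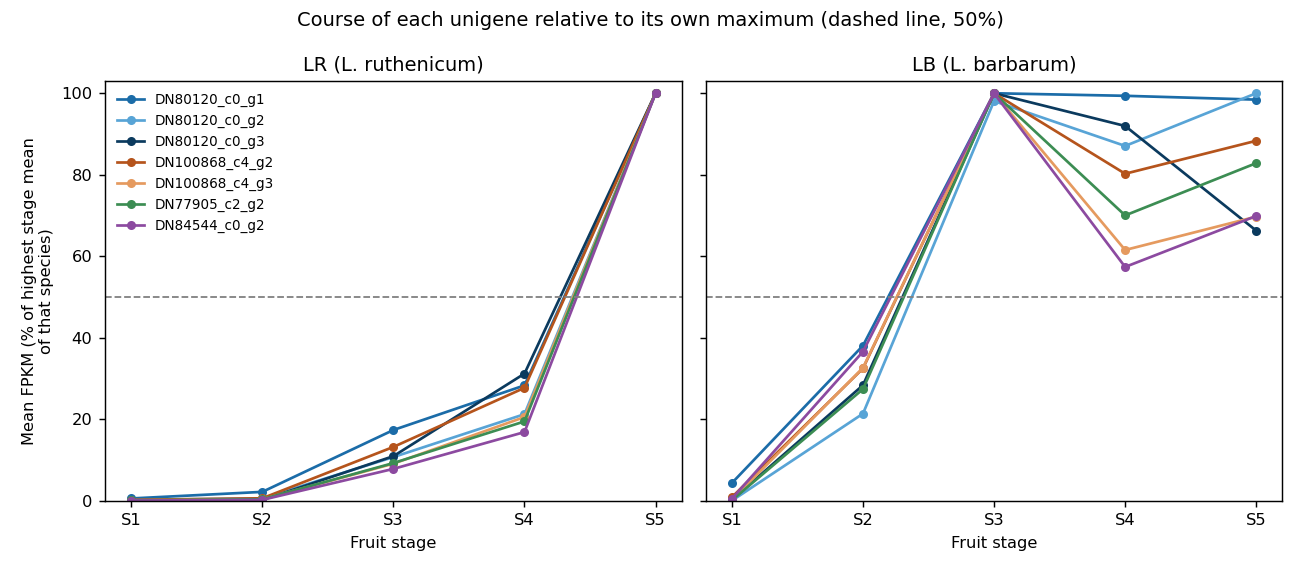
Mean FPKM of 3 libraries at each stage as a percent of the highest stage mean of the same species, for the 7 unigenes in LR (left) and LB (right), with a dashed line at 50%. All 7 lines cross the dashed line between S4 and S5 in LR and between S2 and S3 in LB, where they then stay at 57.4% or more.

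The first rise was less far apart than the 50% stage. All 7 were separated from S1 by S2 in LB. In LR, DN80120_c0_g1, DN80120_c0_g2 and DN77905_c2_g2 were separated at S2 and the other 4 at S3, a lag of 0 stages for 3 and 1 stage for 4. LR2-2 decided this count: 3 of the 7 were below 1 FPKM in it, and without it only 1 of 7 was separated as late as S3. The LR levels at S2 were small, at most 58.9 FPKM over all 7 and at most 35.2 FPKM in the 3 that were separate. The choice of 50% also mattered: at 25% of the maximum the onset was S2 in LB for 6 of 7, and in LR S4 for 3 and S5 for 4, so the lag was 2 stages for 4 and 3 stages for 3. At 75% it was S5 in LR and S3 in LB for all 7 again. After scaling, DN80120_c0_g3 reached 50% at LR S4, with a lag of 1 stage, and the other 6 kept a lag of 2.

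A later rise in LR was common among unigenes. Of all unigenes tested, 1117 rose in both species (highest stage mean of at least 10 FPKM and an S1 mean of at most 25% of it in each), these 7 among them. The 50% stage came later in LR for 644 of them (57.7%), at the same stage for 368 and earlier for 105, and 32.5% had a lag of 2 stages or more. Of the 526 that reached 50% at LB S3, as the 7 did, 285 (54.2%) reached it at LR S5. After scaling, 50.8% of 1359 such unigenes were later in LR and 17.1% had a lag of 2 or more. By separation from S1, 700 of 1017 (68.8%) were later in LR. The 7 had been chosen for their lag, so their own count is not set against these shares.

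**Figure D3:**
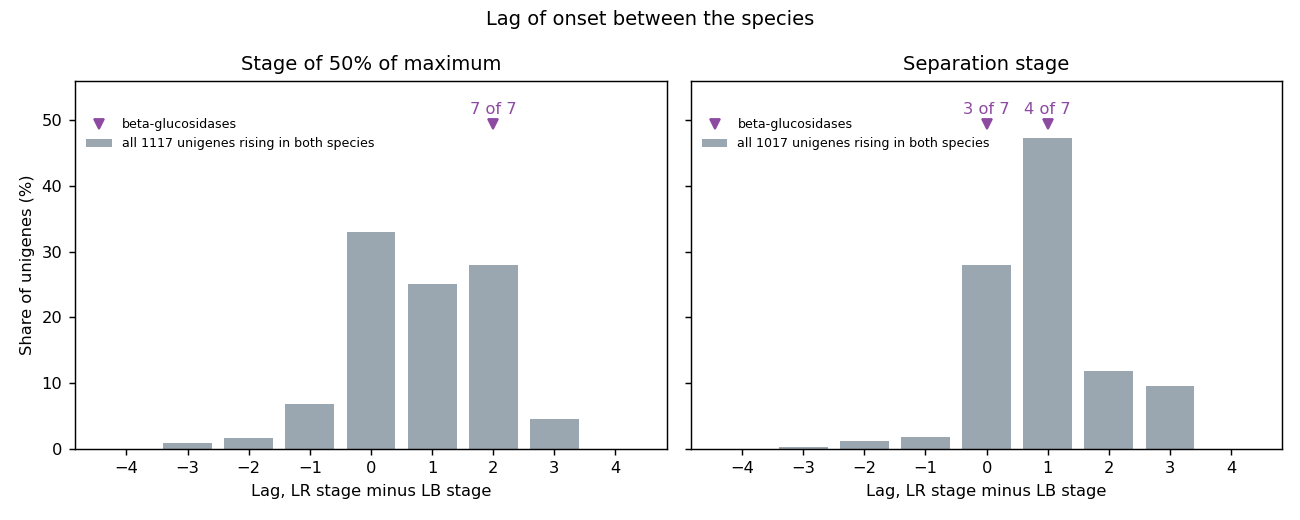
Share of all unigenes that rose in both species by their lag (LR stage minus LB stage), for the stage of 50% of the maximum (left, 1117 unigenes) and the stage of separation from S1 (right, 1017 unigenes), with the beta-glucosidases marked by triangles. The 7 sit at a lag of 2 by the first measure and at 0 (3 of 7) or 1 (4 of 7) by the second, all within the range of the other unigenes.

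The limma fit over all unigenes, with calls made where the adjusted p was below 0.01 and the log2 difference was 1 or larger, placed the steps as follows. In LR, 0 of 7 were called higher at S2 than at S1 (0.13% of all unigenes tested were), 7 at S3 than at S2 (0.39%), 0 at S4 than at S3 (0.027%) and 2 at S5 than at S4 (2.36%). In LB, 7 of 7 were called higher at S2 than at S1 (2.49%), 1 at S3 than at S2 (1.22%), 0 at S4 than at S3 (0.108%) and 0 at S5 than at S4 (0.9%). None of the 7 was called lower at any step. Since the 7 were chosen on these steps, nothing is read from their counts. The differences at S3 minus S2 in LR ran from 3.08 ± 0.41 (DN80120_c0_g1) to 5.23 ± 0.77 (DN84544_c0_g2) for the 6 besides DN80120_c0_g3, and at S2 minus S1 in LB from 3.09 ± 0.41 (DN80120_c0_g1) to 8.20 ± 0.49 (DN80120_c0_g2), beside medians of -0.21 and 0 over all unigenes. The last value rests on the offset, since DN80120_c0_g2 was at or near 0 in LB S1, and it was 9.93 with an offset of 0.1 and 7.37 with an offset of 1.

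At the last step in LR the libraries of all 7 lay apart, S5 above S4, by 1.73 (DN80120_c0_g3) to 2.58 (DN84544_c0_g2) on the log2 scale, beside a median of 0.26 over all unigenes. Of all unigenes tested, 20.9% had S5 above S4 in this way. After scaling the differences were smaller, 0.97 (DN80120_c0_g3) to 1.81 (DN84544_c0_g2). Only DN80120_c0_g1 and DN80120_c0_g2 were called, and this count was fragile. It was 0 after scaling, and 0 without LR4-2, LR4-3, LR5-1, LR5-2 or LR5-3. It was 1 without LB1-1, LB1-2, LB1-3, LB2-2, LB2-3, LB3-1, LB3-3, LB5-1, LB5-3, LR1-1 or LR1-2, and 3 without LB4-3, LR2-2 or LR3-3. At S3 minus S2 in LB, where libraries of all 7 also lay apart (8.49% of all unigenes), DN80120_c0_g2 was the only one called, at 2.22 ± 0.49; it was not called without LB2-1, LB2-2, LB3-1, LB3-2 or LB3-3, and 2 were called without LR2-3. Over the whole course, S5 minus S1, all 7 were called higher in LR (2.97% of all unigenes) and in LB (5.56%).

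Between the species at the same stage, the LR level was lowest beside that of LB at S2 for the 6 besides DN80120_c0_g3, and came higher beside it at each later stage in all 7. Since the 7 were chosen for a later rise in LR, nothing is read from the counts of calls that follow, and the share of all unigenes called is printed beside each. At S1 2 of 7 were called lower in LR (20.6% of all unigenes were), DN80120_c0_g1 by -3.10 ± 0.41 and DN100868_c4_g2 by -2.66 ± 0.52. At S2 all 7 were called lower in LR (19.6%), by -4.63 ± 0.41 (DN80120_c0_g1) to -7.96 ± 1.04 (DN100868_c4_g3) for the 6 besides DN80120_c0_g3. At S3 5 of 7 were called lower (21.5%), at S4 4 (24.5%), and at S5 only DN80120_c0_g2 (21%). As a share of the LB mean, the LR mean at S1 was 10.7% (DN80120_c0_g1) to 26.1% (DN77905_c2_g2) for 5 of the 7, without DN80120_c0_g3, listed at 0 in LR, and DN80120_c0_g2, at or under 0.72 in all 6 libraries. At S2 it was 0.4998% (DN77905_c2_g2) to 4.66% (DN80120_c0_g1) for the 6 besides DN80120_c0_g3, whose 3 LR libraries were at or near their smallest readable value. It was at S3 2.16% (DN80120_c0_g2) to 23.0% (DN84544_c0_g2), at S4 4.82% (DN80120_c0_g2) to 86.4% (DN84544_c0_g2) and at S5 19.8% (DN80120_c0_g2) to 421% (DN84544_c0_g2). All LR libraries lay below all LB libraries for 7 of 7 at S2 (31.6% of all unigenes tested), 7 of 7 at S3 (29.6%) and 6 of 7 at S4 (33.0%). At S5 they overlapped for 5 of 7, DN80120_c0_g2 lay below (30.6%) and DN84544_c0_g2 above (18.6%). After scaling, LR and LB libraries of S4 overlapped also for DN80120_c0_g1, DN80120_c0_g3, DN100868_c4_g2 and DN100868_c4_g3, through the low LB4-3.

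The whole table leaned the same way, with a median of all unigenes of -0.42, -0.33, -0.25, -0.49 and -0.26 on the log2 scale from S1 to S5 for LR minus LB. The deposited unigenes were assembled from reads of both species, and a sequence that differs between them can place fewer reads of the species it fits less well. Its part in the species differences was not tested. After scaling, 2 of 7 were called lower in LR at S4, and at S5 1 was called lower and 1 higher. The difference in the first step itself, S2 minus S1 in LR minus the same in LB, was called lower for DN100868_c4_g2 (-4.28 ± 0.74), DN77905_c2_g2 (-6.28 ± 0.85) and DN80120_c0_g2 (-7.19 ± 0.69), 3 of 7, while 0.612% of all unigenes were called lower. That step is part of the lag by which the 7 were chosen, so nothing is read from this count. It was called for 5 of 7 without LR2-1. The later steps gave 0 of 7, with differences of 1.09 to 3.76 at S3 minus S2 for the 6 besides DN80120_c0_g3, 0.95 to 2.55 at S4 minus S3 and 1.65 to 2.19 at S5 minus S4, all larger in LR.

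The order of the 10 groups by mean FPKM as deposited was alike for 5 members and differed at the top for the other 2. LB S3, S4 and S5 were the top 3 groups for DN80120_c0_g1, DN80120_c0_g2, DN80120_c0_g3, DN100868_c4_g2 and DN77905_c2_g2, and neighbours among them overlapped in their libraries. LR S5 came next for 4 of these 5, overlapping the LB group above it, and in DN80120_c0_g2 it came after LB S2. LR S4 ranked above LR S3 in all 7, and these groups overlapped in DN80120_c0_g1, DN80120_c0_g2, DN100868_c4_g3, DN77905_c2_g2 and DN84544_c0_g2. In DN84544_c0_g2 LR S5 came first, apart from LB S3, and LR S4 ranked above LB S2, which it overlapped. In DN100868_c4_g3 LR S5 came above LB S4, and overlapped its neighbours. The lowest 3 groups were LR S1, LR S2 and LB S1 in all 7. Scaling moved this order at the top. LR S5 then came first in DN80120_c0_g1 (898, beside 894 at LB S3). It came above LB S5 in DN80120_c0_g3 (6443 and 4837) and DN100868_c4_g3 (4052 and 3286), and above LB S2 in DN80120_c0_g2 (195 and 146). In DN84544_c0_g2 LR S4 came above LB S3 after scaling (878 and 847).

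The make-up of the sum differed between the species in smaller members, with a larger share of DN84544_c0_g2 and smaller shares of DN80120_c0_g2 and DN77905_c2_g2 in LR. Where the 7 were high (LR from S3, LB from S2), DN80120_c0_g3 and DN100868_c4_g2 together took most of it in both species, with shares at S5 of 30.7% ± 1.86 in LR and 29.3% ± 6.73 in LB for DN80120_c0_g3 and of 26.3% ± 0.674 in LR and 35.2% ± 1.38 in LB for DN100868_c4_g2. DN84544_c0_g2 took 9.50% ± 2.72 at LR S3, 10.04% ± 1.80 at S4 and 14.9% ± 0.972 at S5, against 2.21% ± 0.743 to 3.90% ± 0.335 in LB from S2 to S5. DN80120_c0_g2 went the other way, with 0.814% ± 0.209 to 0.947% ± 0.128 in LR from S3 to S5 and 2.18% ± 0.136 to 4.01% ± 0.273 in LB from S2 to S5.

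**Figure D4:**
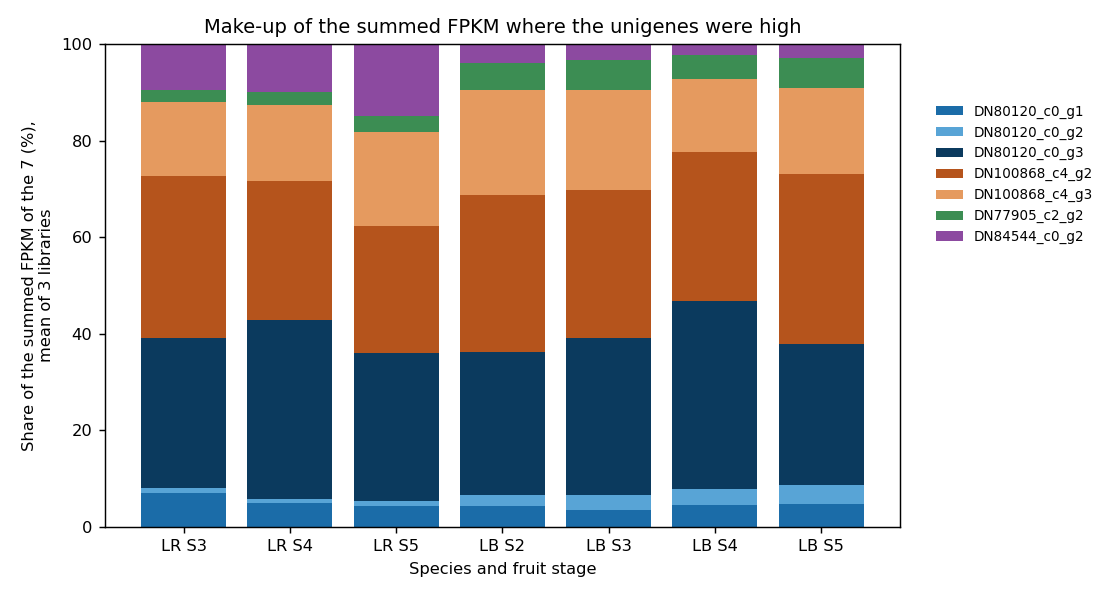
Share of each unigene in the summed FPKM of the 7, in percent (stacked bars, mean of 3 libraries), in the groups where the 7 were high, LR S3 to S5 on the left and LB S2 to S5 on the right. DN84544_c0_g2 (top) is 9.50% to 14.9% of the LR bars and 2.21% to 3.90% of the LB bars, and DN80120_c0_g2 (second from the bottom) is thinner in LR.

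Ratios of FPKM within a library, which no scaling between libraries changes, showed this more sharply. DN84544_c0_g2 over DN77905_c2_g2 was 3.49 to 4.47 in the 9 LR libraries from S3 on and 0.409 to 0.751 in the 12 LB libraries from S2 on. The shares of its upper and lower unigene differed between the species in opposite directions, so this ratio holds both differences. Within a group the 3 ratios were close, 3.67, 3.74 and 3.91 at LR S4, for example. LB4-3 (0.418) and LB5-2 (0.409) had the lowest ratio of their groups. The others were 0.434 and 0.448 at LB S4 and 0.459 and 0.460 at LB S5. DN80120_c0_g2 over DN80120_c0_g1, 2 unigenes of the same assembly group, was 0.0768 to 0.246 in LR and 0.437 to 1.04 in LB. DN80120_c0_g3 over DN100868_c4_g2 overlapped between the species, at 0.871 to 1.495 in LR and 0.694 to 1.488 in LB. These pairs were picked after their values were seen, and how much of a ratio comes from sequences that fit 1 species better was not tested.

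The 7 also moved together within a group. Other unigenes were not compared in this way, and some of the 7 may be pieces or copies of 1 gene. The subsets of libraries below were chosen after seeing the data, so the r are a description only. Over 30 libraries, the deviations of log2 (FPKM + 0.5) from the mean of the group had a median Pearson r of 0.659 over the 21 pairs of unigenes (-0.040 to 0.908). The low end came from DN80120_c0_g3, whose values listed at 0 in young fruit spread it widely. Over the 21 libraries in which the 7 were high the median was 0.932 (0.749 to 0.996), and without the LB S4 and S5 groups, over 15 libraries, 0.896 (0.666 to 0.992). DN77905_c2_g2 and DN84544_c0_g2, whose ratio differed between the species, had the highest r, 0.996. These points share the library and its scale, and the median unigene deviated by at most 0.12 in any library. The scaling factors differed more within some groups, from 0.493 to 0.932 (LR3-3) at LR S3 and from 0.414 to 0.751 at LR S4. These r were computed without scaling, so the part of the library scale in them was not tested. In FPKM as deposited, LR3-3 was above its group by 0.75 to 1.42 in all 7. LB4-3 was below by 0.72 to 1.45 and LB5-2 by 0.30 to 1.189, again in all 7. After scaling, LR3-3 had 1152 for DN100868_c4_g2, beside 1145 and 752 in LR3-1 and LR3-2. For DN100868_c4_g3 it had 733, beside 356 and 344. At LR S4, DN80120_c0_g1 ran 284, 241 and 198 as deposited and 379, 426 and 478 after scaling. LB4-3 had 21.8% (DN84544_c0_g2) to 47.0% (DN80120_c0_g3) of the mean of the other 2 libraries of LB S4, and LB5-2 had 28.9% (DN84544_c0_g2) to 73.4% (DN80120_c0_g3) of that of LB S5.

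**Figure D5:**
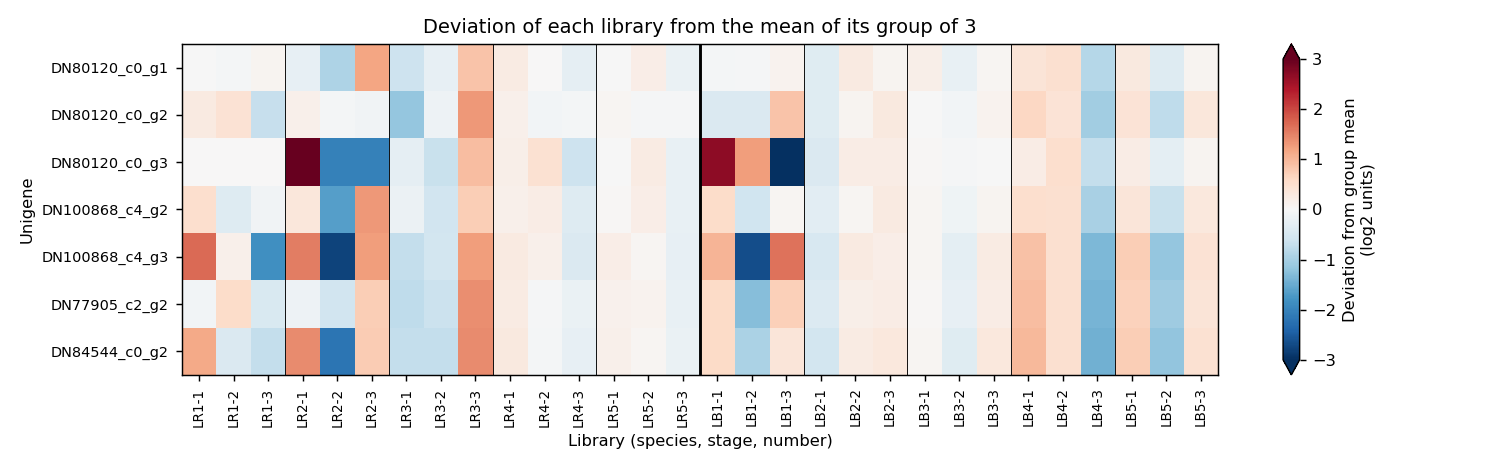
Deviation of log2 (FPKM + 0.5) from the mean of the group of 3, in log2 units (red above, blue below, colours end at -3 and 3), for the 7 unigenes (rows) in 30 libraries (columns, LR left of LB). Columns LR3-3, LB4-3 and LB5-2 are among those with 1 colour in all 7 rows, and the deepest colours are at LB S1, LR S1 and LR S2, where levels were low.

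The 20 other beta-glucosidases of the list, all of which passed the filter on low values, did not follow this course as a group. From S1 to S5, 3 rose and 1 fell in LR (2.97% and 5.39% of all unigenes), and 4 rose and 8 fell in LB (5.56% and 8.98%). From S1 to S2 in LB, 3 rose and 5 fell (2.49% and 3.82%). The study chose the list on these samples, so the counts are not independent evidence of a direction. The name of the best match divided them in LB. Of the 5 others named beta-glucosidase 11-like, like the 7, 4 rose from S1 to S5 in LB, by 1.96 to 3.41 over all 5, and none fell. Of the 15 with other names, none rose in LB and 8 fell. In LR, 2 of the 5 and 1 of the 15 rose from S1 to S5, and 1 of the 15 fell. From S4 to S5 in LR, none of the 5 and 2 of the 15 rose (2.36% of all unigenes).

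The 4 others with the highest stage means were far below the most abundant of the 7. DN97273_c4_g1 and DN81745_c0_g1, both named beta-glucosidase 11-like, rose in LB only as far as 183 ± 35.3 and 96.0 ± 40.9 FPKM at S5, from S1 by 3.41 ± 0.33 (adjusted p = 3.4e-08, limma) and 3.38 ± 0.58 (adjusted p = 1e-04, limma) on the log2 scale. In LR they were at 22.5 ± 5.64 and 24.8 ± 17.3 at S5, differences from S1 of 0.93 ± 0.33 and 0.62 ± 0.58 that were not called. DN91570_c3_g1 and DN84985_c3_g2, whose best match is vicianin hydrolase-like, an enzyme that acts on a cyanide-releasing glucoside, fell in LB, with 16.97 ± 6.63 and 14.4 ± 1.130 FPKM at S5 against 210 ± 96.7 and 120 ± 68.2 at S1 (adjusted p = 6.6e-05 and 1.9e-06, limma). In LR the first was listed at 0 in all 15 libraries and the second was at or under 0.417 FPKM in every group mean.

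The 3 coniferyl-alcohol glucosyltransferases, which attach the glucose that a beta-glucosidase can remove, fell in LB over the same course. At LB S5, against S1, DN73583_c0_g1 had 0.0567 ± 0.0981 against 18.3 ± 6.34 FPKM, DN92234_c0_g1 had 2.06 ± 0.293 against 12.1 ± 3.14, and DN92234_c0_g2 had 3.85 ± 1.63 against 18.5 ± 4.51, with log2 differences of -5.03 ± 0.66, -2.28 ± 0.39 and -2.16 ± 0.47 (adjusted p = 2.8e-06, 8.7e-05 and 0.0013, limma). In LR none was called, and the means of S5 against S1 were 7.86 ± 1.022 against 6.22 ± 6.78, 5.11 ± 1.75 against 7.43 ± 0.993 and 3.16 ± 1.41 against 4.28 ± 0.681. The difference between the species was called at none of the 4 steps for any of the 3, and over the whole course it was not tested. All 3 were at 18.5 FPKM or less in every group mean.

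Of the other 106 phenylpropanoid unigenes of the list, 104 passed the filter. From S1 to S5, 11 rose and 37 fell in LR (2.97% and 5.39% of all unigenes), and 18 rose and 65 fell in LB (5.56% and 8.98%). The study chose these unigenes on the same samples, so the counts describe the list only. All 6 caffeoyl-CoA O-methyltransferases, which methylate lignin precursors, fell in both species. Peroxidases, some of which join lignin building blocks in the wall, fell for 16 of 31 in LR and 22 of 31 in LB, where 2 rose. Cinnamyl-alcohol dehydrogenases, which make those building blocks, fell for 5 of 10 in LR and 9 of 10 in LB, and 1 rose in each species. Not all classes fell. Of the coumaroylquinate(coumaroylshikimate) 3'-monooxygenases 2 of 6 rose in LR and 4 of 6 in LB, and none fell. The 1 cinnamoyl-CoA reductase rose in both species. Coniferyl-aldehyde dehydrogenases rose, 3 of 4 in LR and 4 of 4 in LB. The 5 whose course over 30 libraries was most like the mean of the 7 were 3 coniferyl-aldehyde dehydrogenases (DN91848_c1_g2, DN91848_c1_g4 and DN91848_c1_g3, with r of 0.860, 0.834 and 0.820), the beta-glucosidase DN97273_c4_g1 (0.765) and the cinnamoyl-CoA reductase DN84683_c0_g2 (0.753). Coniferyl-aldehyde dehydrogenase oxidises coniferyl aldehyde to ferulic acid, and cinnamoyl-CoA reductase opens the branch to lignin building blocks. The dehydrogenase DN91848_c1_g4 had 83.3 ± 8.18 FPKM in LR and 2578 ± 228 in LB at S5, so it lacked the high level that the 7 had in ripe LR fruit.

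Across all 111210 other unigenes tested, r with the mean of the 7 had a median of 0.019, and 20 reached 0.95. The nearest were DN101365_c1_g2 (r = 0.981) and DN97672_c1_g1 (r = 0.981), for which the sources used here give no gene name. DN101365_c1_g2 had a mean FPKM of 106 ± 17.9 at S4 and 246 ± 48.5 at S5 in LR, and its highest in LB, 553 ± 54.7, at S3, the stage at which 6 of the 7 were highest. Within LR alone chalcone synthase and leucoanthocyanidin dioxygenase ran close to the 7 (r = 0.982 and 0.990 over 15 libraries), while within LB they did not (r = -0.289 and 0.078). How many unigenes reach such an r within LR was not counted, and the coniferyl-aldehyde dehydrogenase DN91848_c1_g2 had 0.936 there. The r describe libraries that share species and stage, and no p is given for them.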

How the data were processed

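The authors filtered reads with Cutadapt 1.7.1, assembled both species' reads with Trinity, clustered transcripts with Corset and computed FPKM from uniquely located reads. The study calls the reads single-end in its methods and pair-end in its results. Bowtie2 is named in the submitters' processing notes. Versions other than that of Cutadapt are not given in the sources used here. The deposited FPKM, with 2 decimals and no stated scaling between libraries, were used as they are. Read counts were not used, so the depth behind a value is unknown. In R 4.3.3 with limma 3.58.1, log2 (FPKM + 0.5) of 111217 unigenes (those reaching an FPKM of 1 in 3 libraries) was fitted with 10 group means and 20 residual degrees of freedom (eBayes with trend and robust), adjusted by Benjamini-Hochberg within each comparison. The offset shrinks differences of low unigenes. The SE of the fit is shared by all 10 groups. All 7 beta-glucosidases passed the filter. Fold changes are later minus earlier stage or LR minus LB. The code was tested on simulated data. The members, the gene lists, the comparisons and the naming rule were chosen with earlier results of these data known. Named besides the 7 were the 4 other beta-glucosidases with the highest stage mean, the 3 coniferyl-alcohol glucosyltransferases, the 3 nearest unigenes of all (the third, without a gene name, is left out) and the 5 nearest of the list, and 2 pigment genes. Alternatives were offsets of 0.1 and 1, no filter beyond an FPKM above 0 in 3 libraries, median-of-ratios scaling over 37527 unigenes, the replicate number as a block, the median, 25% and 75% of the maximum, and leaving out libraries.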

Additional observations from a re-analysis of the deposited data

Results flagged for a closer look

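Outside the 7, 5 named unigenes had a stage step that differed between the species by the interaction term of the limma fit (LR step minus LB step, log2 scale), and the causes were not tested. At S3 minus S2 leucoanthocyanidin dioxygenase (DN68066_c0_g2) rose in LR (3.23) and fell in LB (-2.23), a difference of 5.46 ± 0.77 (adjusted p = 0.00022), and chalcone synthase (DN73389_c1_g2) rose in LR (3.62) and was not called in LB (-1.25), a difference of 4.87 ± 0.91 (adjusted p = 0.0035). At S2 minus S1 the beta-glucosidase DN97273_c4_g1 was not called in LR (0.30) and rose in LB (2.93), a difference of -2.63 ± 0.47 (adjusted p = 0.0016). The vicianin hydrolase-like DN84985_c3_g2 gave 2.81 ± 0.52 at that step (adjusted p = 0.0022), where it fell in LB and was under 0.5 FPKM in both LR groups' means. The coniferyl-aldehyde dehydrogenase DN91848_c1_g4 was not called in LR (-0.31) and rose in LB (3.18) at S2 minus S1, a difference of -3.49 ± 0.45 (adjusted p = 3.8e-05), and rose less in LR (1.43) than in LB (3.6) at S3 minus S2, a difference of -2.17 ± 0.45 (adjusted p = 0.0083).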

How the results depend on the processing

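The 7 were called higher at LB S2, and lower in LR at S2, under all alternatives and without any single library, while the small counts moved. At LR S5 against S4, 1 of 7 was called with an offset of 0.1 or without the filter, 0 after scaling and 0 with the replicate block, and 0 to 3 without single libraries. At LB S3 against S2 it was 0 with an offset of 0.1, 2 after scaling and 0 to 2 without single libraries. At LR S3 against S2 it was 6 to 7. Between species, lower in LR, the ranges without single libraries were for young fruit 2 to 3, green 7 to 7, colouring 5 to 7, immature 4 to 4 and mature 1 to 1, with 2 after scaling at S4 and 0 with an offset of 0.1 at S5. Higher in LR at S5, 1 was called after scaling, and 0 to 1 without single libraries. The step difference was called lower for 3 to 5 at S2 minus S1 and higher for 0 to 1 at S3 minus S2, where it was 1 after scaling. Onset at 25% of the maximum was LB S3 for 1, LR S5 for 4, with a lag of 2 for 4. Separation at LR S3 held for 1 to 5 and the highest LB mean at S3 for 3 to 7 without single libraries, and for 2 without LB4-3 and LB5-2. The 50% stages and the lag of 2 held for 7 of 7 without any single library. For the 20 other beta-glucosidases scaling gave 1 higher and 1 lower at LR S5 against S4 and 2 lower at LR S5 against S1. The median r within groups was 0.932 or 0.896 in the subsets of libraries, chosen after seeing the data. The replicate numbers were not taken to pair the libraries, since r of same-numbered deviations was over 0.1 in 10 of 30 pairs in LR and 2 of 30 in LB. It was above 0 in 29 of 30 in LR, and over 0.1 in 9 of 10 between libraries numbered 3, a hint from the data that the labels do not settle, and above 0 in 16 of 30 in LB. With 3 libraries a group, p-values rest on a spread between libraries that is shared by all 10 groups. They treat the 30 libraries as independent, although some share a plant. The smallest values above 0, 0.28 FPKM (DN77905_c2_g2) to 17.52 FPKM (DN80120_c0_g3), limit what could be seen in young fruit.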
